A study of Mus musculus with 24 samples.

Results

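The response described here is that of cortical neurons expressing both accessory chains of the IL-1 receptor, AcP and AcPb, to the cytokine IL-1b. Its members are the 3 arrays of stimulated AcP+AcPb neurons and the 3 arrays of unstimulated AcP+AcPb neurons, 6 of the 24 arrays of the series, chosen by their titles. They were compared over all 45037 probe sets of a mouse expression array, leaving out the manufacturer's 40 control probe sets. All 24 samples were embryonic cortical neurons of the genotype Il1rap-/-, so the only intact AcP or AcPb was what had been introduced. The other 18 arrays hold neurons expressing CD25, AcP or AcPb in the same layout, with 3 control and 3 IL-1b arrays for each. IL-1b was added to the medium at 10 ng/ml and control and stimulated neurons were taken at 4 hours. The growth medium was serum-free. The labels do not say how the receptor chains were delivered, how much of each was made or how many embryos were pooled. Nothing in the labels says that the replicates of a group were separate cultures, so every p-value measures the spread between these arrays, which may be technical.

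IL-1b signals by binding its receptor IL-1R1 and recruiting an accessory chain, which brings the signalling domains of both chains together and engages MyD88, the IRAK kinases and TRAF6. From there the pathway activates NF-kB and the MAP kinases, which switch on chemokines, acute phase genes and their own inhibitors. AcP is the accessory chain found in most tissues. AcPb is an isoform of the same gene found in neurons, with a different intracellular end. CD25 is the alpha chain of the receptor for another cytokine and serves as the arm without an accessory chain. The AcP+AcPb arm therefore asks how neurons with both chains respond.

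The description of each array carries a short code, and this code divides the AcP+AcPb controls. Controls 1 and 2 carry 22B, while control 3 and all 3 IL-1b arrays carry 23B. The 18 arrays of the other arms carry 21B. The labels do not say what the code stands for. The response is therefore described against all 3 controls first. A later paragraph sets it against control 3, the only control that shares its code with the stimulated arrays.

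The 6 arrays were alike in overall signal. Their median probe set intensity was 59.7 to 63.5 units, with 16.6% to 18.2% of probe sets below 0, since the deposited intensities hold negative values. The ratio of 3′ to 5′ control probe sets was 0.945 to 1.01 for Gapdh and 1.20 to 1.33 for actin. Neuron markers were bright: Stmn2, a microtubule regulator of growing neurons, read 7722 to 8031 units in the controls and 8222 to 8591 with IL-1b, and 0 of the 10 neuron markers were called. Astrocyte markers were also present. Aqp4, the water channel of astrocyte endfeet, read 3204, 3319 and 3686 units in the controls and 3197, 2794 and 3488 with IL-1b. Microglial markers were near background. Aif1, Tmem119 and C1qa were at or below 1.74 units on all 6 arrays, and Csf1r, at 229 to 402 units, was the only one of the 10 above 66 units at its brightest probe set. The endothelial marker Pecam1 was below 0 on every array, but it does not stand for its list of endothelial, mural and fibroblast markers. On the logarithmic scale described below, the mean of that list was 5.7 to 5.9 on the 6 arrays. Microglial markers had means of 4.9 to 5.3 on that scale. Oligodendrocyte lineage markers had means of 7.5 to 8.0, and progenitor and dividing cell markers 7.7 to 8.1, so these lists were clearly above the microglial one. The cultures were bulk samples, so a change in the number of cells of a type and a change in RNA per cell cannot be told apart.

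The receptor genes themselves gave no calls. The 2 probe sets of Il1r1, the receptor chain that binds IL-1b, read at most 0.29 units on all 6 arrays, so its transcript was not measured above background here. The 5 probe sets of Il1rap ranged from 25.9 to 145 units and changed by -0.10 to 0.24 (log2) with IL-1b, none past the test. Their levels in AcP+AcPb controls (means of 28.3 to 130 units) stood beside 37.4 to 122 units in CD25 controls. Whether these probe sets read the deleted or the introduced part of the gene was not examined here, so they do not check the labels. The 2 probe sets of Il2ra, which encodes CD25, had means of 25.0 and 24.4 units in AcP+AcPb controls. In CD25 controls they had 37.7 and 15.7 units, so the arm labelled as expressing CD25 did not clearly stand out at these probe sets. Whether they read the introduced CD25 sequence was not examined here, so they do not check that label either. The decoy receptor Il1r2 and the antagonist Il1rn gave log2 changes of -0.62 ± 0.40 (SE) and -0.51 ± 0.30 (SE) at their brightest probe sets, with adjusted p = 0.71 and 0.66. Of the 10 measured genes of the IL-1 receptor family list, 0 were called.

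IL-1b raised a compact set of inflammatory genes in AcP+AcPb neurons. Values below 0 were set to 0, 16 was added and the base-2 logarithm taken. A linear model (limma) was then fitted over all 24 arrays, and a probe set was called at a Benjamini-Hochberg adjusted p under 0.05. By this test 88 of the 45037 probe sets changed (0.195%), 66 of them higher and 22 lower with IL-1b. At an unadjusted p under 0.05 there were 4045. In all 88 the 3 IL-1b arrays lay wholly above or wholly below the 3 controls, which was also true of 15.1% of all probe sets. Among the 66 that rose, 42 rose at least 2-fold on the log2(intensity + 16) scale. Among the 22 that fell, 4 fell at least 2-fold. The changes named 46 genes that rose (0.253% of 18193 genes with a probe set of 1 symbol) and 20 that fell (0.11%), and 7 of the 88 probe sets had no gene symbol. The median change over all probe sets was 0.00.

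**Figure D1:**
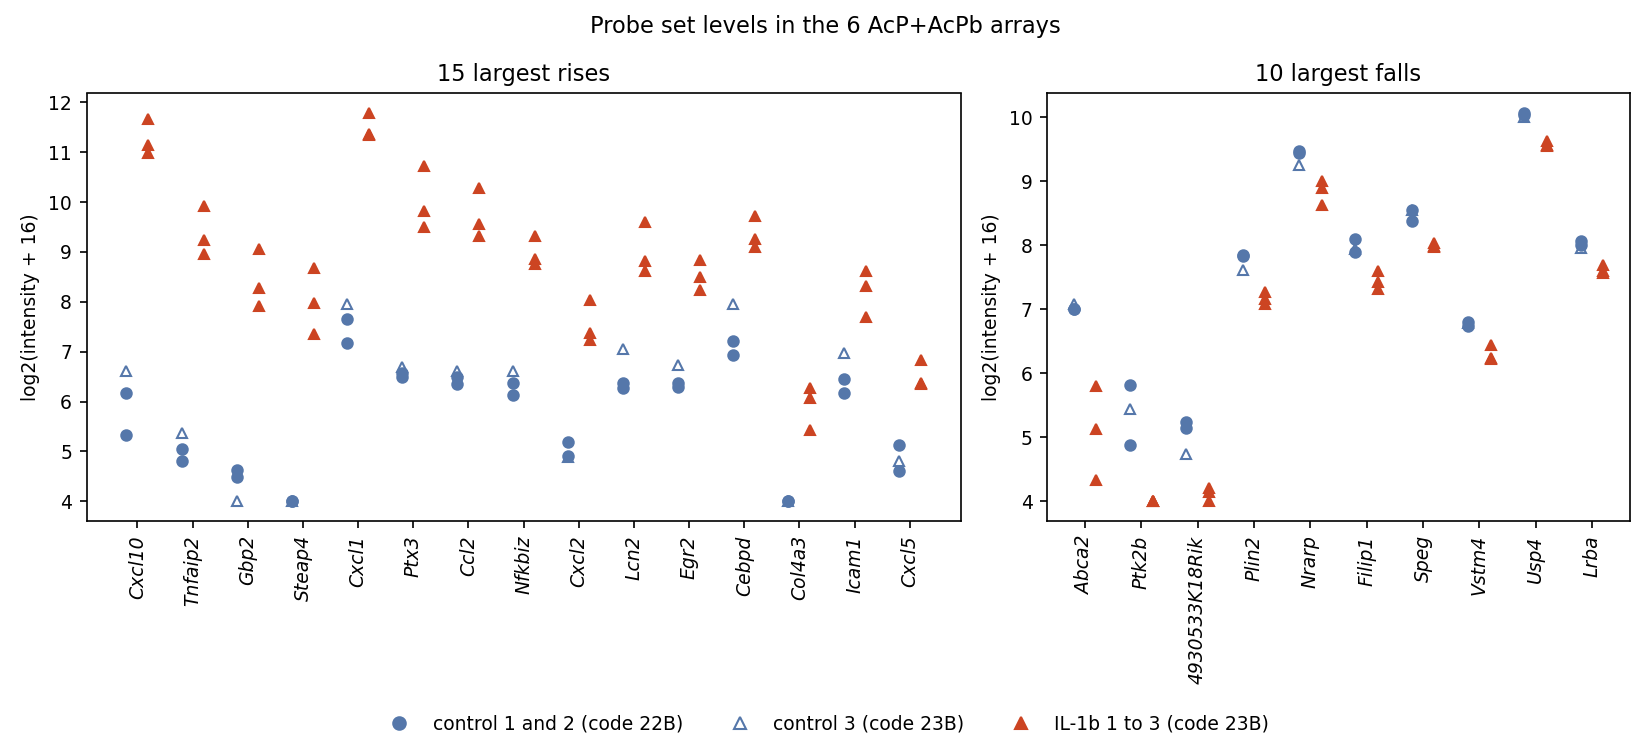
Levels of the 15 genes with the largest rise and the 10 with the largest fall, as log2(intensity + 16), with 1 point for each of the 6 AcP+AcPb arrays, blue for control and red for IL-1b. Circles are the controls with the array code 22B, the open triangle is control 3 and filled triangles are the IL-1b arrays, all with the code 23B; for each gene the red points lie wholly above or wholly below the blue ones, and values of 0 or less sit at 4 on this scale.

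Chemokines that attract neutrophils and activated T cells were among the largest rises. Cxcl1, a neutrophil attractant, read 129, 187 and 232 units in the controls and 2573, 2626 and 3519 units with IL-1b. Every stimulated array was above every control, and the mean intensity was 15.9-fold higher, a log2 change of 3.90 ± 0.25 (SE, n = 3 against 3, limma adjusted p = 2.2e-07). A second Cxcl1 probe set went from -4.54, 6.31 and 30.3 units to 1577, 1673 and 2375 units, a log2 change of 6.19 ± 0.30 (SE). The remaining Cxcl1 probe set went from between 347 and 591 units to between 1683 and 2253 units. Cxcl10, a ligand of the T cell receptor CXCR3, read 24.3, 56.4 and 82.3 units in the controls and 1998, 2246 and 3225 units with IL-1b. Its log2 change of 5.22 ± 0.33 (SE, adjusted p = 1.7e-07) was the largest among the genes when each is represented by its brightest called probe set. Control 3 was the highest control for both genes, and IL-1b array 3 was the highest stimulated array.

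Ccl2, which attracts monocytes, read 65.7, 73.9 and 81.2 units in the controls and 620, 743 and 1224 units with IL-1b. The groups did not overlap, and the mean was 11.7-fold higher (log2 change 3.24 ± 0.21 SE, adjusted p = 2.3e-07). Cxcl2, a second neutrophil attractant, read 14.1, 20.5 and 13.7 units and then 135, 150 and 247 units, a log2 change of 2.55 ± 0.24 (SE, adjusted p = 3.1e-05). Cxcl5, another ligand of the same receptor family, rose from between 8.52 and 18.9 units to between 65.2 and 97.8 units (adjusted p = 0.00069). The other chemokines were quieter. The gene lists were chosen with earlier results of these data known, and over all genes 0.253% rose. The list of neutrophil attractants had 3 of 7 measured genes called and a median change of 0.08. CXCR3 ligands had 1 of 3 called with a median of 0.16, and CC chemokines 1 of 14 with a median of 0.11. Cxcl9 and Cxcl11, the other CXCR3 ligands, changed by 0.13 and 0.16 (adjusted p = 1 for each). Ccl7 gave 1.07 ± 0.31 (SE) with adjusted p = 0.23. Of the 7 homeostatic neural chemokines and the 11 measured chemokine receptors, 0 were called.

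The inhibitors of NF-kB, which the pathway induces against itself, also rose. Nfkbia, the IkB protein that holds NF-kB in the cytoplasm, was already high in the controls at 2515, 2909 and 2661 units. With IL-1b it read 4112, 4136 and 4962 units, so the groups stood apart although the rise was only 1.63-fold (log2 change 0.70 ± 0.08 SE, adjusted p = 0.00024). Of its 4 other probe sets, 3 were called, with log2 changes of 0.95, 1.03 and 1.03, and the dimmest gave 0.35 (adjusted p = 0.29). Nfkbiz, a nuclear IkB protein that partners NF-kB at secondary response genes, read 54.5, 67.2 and 82.2 units and then 419, 449 and 622 units, a 7.31-fold rise (adjusted p = 4.7e-07). Its 2 dimmer probe sets gave 1.55 and 0.49 and were not called (adjusted p = 0.17 and 0.36). Nfkbie read 26.3, 14.8 and 39.4 units and then 77.0, 85.5 and 126 units (log2 change 1.40 ± 0.21 SE, adjusted p = 0.0045). Its other probe set gave 0.35 and was not called. With Nfkbia, Nfkbiz and Nfkbie, 3 of the 6 genes of the IkB family list rose, where 0.253% of all genes rose. Its median change was 0.60, where the median over all genes was 0.00.

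Other genes of the NF-kB pathway were mostly not called. Tnfaip2, named for its induction by TNF, read 17.1, 12.1 and 25.1 units in the controls and 481, 591 and 959 units with IL-1b. All 3 stimulated arrays were far above the controls, with a 37.4-fold higher mean (log2 change 4.30 ± 0.24 SE, adjusted p = 4.4e-08). A second Tnfaip2 probe set rose by 3.26 and the remaining one gave -0.13 (adjusted p = 1). Relb, a subunit of the alternative NF-kB pathway, rose from between 47.7 and 55.5 units to between 99.8 and 128 units (log2 change 0.92 ± 0.17 SE, adjusted p = 0.025). Rela gave 0.18 ± 0.05 (SE) with adjusted p = 0.25, and Relb was the only one of the 4 measured subunits called. Birc3, an inhibitor of apoptosis and ubiquitin ligase, rose from background, -3.68 to 2.52 units, to between 20.7 and 47.5 units. Its other probe set gave -0.24 and was not called. Tnfaip3, the deubiquitinase A20, read 53.0, 38.1 and 25.6 units and then 54.0, 93.7 and 105 units, a change of 0.86 ± 0.42 (SE) that was not called (adjusted p = 0.57). Tnfaip2 and Birc3 were the 2 of 15 called in that list. None of the 15 measured genes of the MyD88, IRAK and TRAF6 list was called.

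The promoters of the genes that rose can be set beside these values, since binding sites for NF-kB and for interferon regulatory factors are short and recognisable. Promoter sequences of 250 bases before to 50 bases after the annotated start were taken from RefSeq (mouse build GRCm38.p6), and 35 of the 46 genes that rose and 14 of the 20 that fell had an entry. The letters GGNNTTTCC, a core of the kB motif, were searched on both strands. They occurred in 11 of the 35 promoters of genes that rose (31.4%), in 1 of the 14 of genes that fell (7.14%) and in 1790 of all 27025 promoters (6.62%). The letters GAAANNGAA, a core of the interferon-stimulated response element, occurred in 8 of the 35 (22.9%), in 2 of the 14 (14.3%) and in 9.76% of all promoters. The windows below are a selection from the genes that rose and held a match, so they do not show how common the letters are. Csf1, Egr2, Gbp3, Gbp7, Homer1, Pde4b, Prr5l and Steap4 also rose and held a match but are not printed. Windows are printed 5′ to 3′ on the gene's strand with the matching letters in capitals. A match describes the letters and shows no binding.
Cxcl1, chr5:90891136-90891203, plus strand: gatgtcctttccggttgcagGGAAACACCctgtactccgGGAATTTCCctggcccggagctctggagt
Cxcl2, chr5:90903783-90903850, plus strand: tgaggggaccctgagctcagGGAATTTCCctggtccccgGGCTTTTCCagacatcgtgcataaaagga
Icam1, chr9:21015767-21015884, plus strand: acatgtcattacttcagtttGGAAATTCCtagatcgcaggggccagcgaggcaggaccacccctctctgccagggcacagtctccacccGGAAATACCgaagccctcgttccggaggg
Nfkbia, chr12:55492648-55492845, minus strand: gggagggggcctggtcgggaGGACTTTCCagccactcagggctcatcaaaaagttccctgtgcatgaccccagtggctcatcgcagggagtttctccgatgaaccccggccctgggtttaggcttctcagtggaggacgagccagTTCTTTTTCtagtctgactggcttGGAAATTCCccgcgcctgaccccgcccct
Tnfaip2, chr12:111442554-111442602, plus strand: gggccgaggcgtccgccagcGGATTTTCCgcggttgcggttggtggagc
Ier3, chr17:35821554-35821602, plus strand: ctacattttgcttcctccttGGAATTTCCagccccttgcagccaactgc
Cxcl10, chr5:92349019-92349122, minus strand: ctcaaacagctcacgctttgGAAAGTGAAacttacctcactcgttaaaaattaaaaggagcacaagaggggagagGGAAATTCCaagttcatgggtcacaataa
Gbp2, chr3:142620585-142620633, plus strand: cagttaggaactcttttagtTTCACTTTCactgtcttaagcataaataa
Irgm1, chr11:48871416-48871470, minus strand: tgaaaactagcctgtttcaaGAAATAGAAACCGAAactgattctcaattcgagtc
Cxcl1, Cxcl2 and Icam1 each held 2 kB matches, Tnfaip2 and Ier3 held 1, and Nfkbia held 2 kB matches with 1 interferon element between them. Cxcl10 held 1 of each kind. In Gbp2 and Irgm1, both interferon-inducible GTPases, only the interferon element was found, and the 2 matches in Irgm1 overlap by 3 bases.

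Transcription factors of the C/EBP, AP-1 and Egr families had a few members among the rises. Cebpd, which drives acute phase genes, read 106, 132 and 233 units in the controls and 535, 598 and 827 units with IL-1b. The groups were apart, but control 3 stood well above controls 1 and 2; the log2 change was 2.00 ± 0.27 (SE, adjusted p = 0.0015). A dim second Cebpd probe set gave 0.70 (adjusted p = 0.72). Cebpb rose from between 232 and 275 units to between 415 and 577 units (adjusted p = 0.0067), and its other probe set gave 1.17 without a call. Thus 2 of the 5 measured C/EBP genes were called, where 0.253% of all genes rose, and the median of the list was 0.88. Egr2, an early growth response factor, read 66.3, 62.6 and 90.9 units and then 287, 347 and 439 units, a 4.88-fold rise (adjusted p = 3.5e-05). It was the only one of 15 activity-regulated early genes called, and Nr4a1 and Arc gave -0.27 and 0.35 (adjusted p = 0.83 and 0.94). Atf3, a stress-induced factor, rose from at most 5.25 units to 16.1, 33.0 and 87.1 units (adjusted p = 0.038). It was the only one of 11 AP-1 and Atf3 factors called: Fos gave 0.54 ± 0.17 (SE) and Jun 0.51 ± 0.15 (SE), with adjusted p = 0.29 and 0.25.

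Feedback genes of the MAP kinase pathway had 2 called members. Ier3, an early response gene, read 60.8, 65.0 and 71.2 units in the controls and 171, 228 and 299 units with IL-1b, 3.54-fold higher (adjusted p = 0.00025). Gadd45b, a stress sensor upstream of p38 and JNK, read 57.7, 71.0 and 51.2 units and then 163, 186 and 224 units, 3.19-fold higher (adjusted p = 0.0004). A brighter Gadd45b probe set gave 1.17 ± 0.26 (SE) and was not called (adjusted p = 0.11). The remaining Gadd45b probe set gave -0.10, also without a call. The list had 2 of 17 genes called and a median of 0.11. The phosphatase Dusp1 gave -0.24 ± 0.08 (SE, adjusted p = 0.31).

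Interferon-inducible GTPases, which guard cells against intracellular pathogens, were the list with the highest median, 0.98, and 5 of its 8 measured genes rose. Over all genes 0.253% rose, but the list was chosen with earlier results of these data known, which can raise its count and median. Gbp2 read 6.33, 8.77 and 0.130 units in the controls and 225, 296 and 519 units with IL-1b (log2 change 4.05 ± 0.28 SE, adjusted p = 4.7e-07). It went from background to a clear signal on all 3 stimulated arrays. Gbp7 rose from between 69.9 and 95.0 units to between 182 and 291 units, Gbp3 from between 60.2 and 117 units to between 191 and 337 units, and Gbp6 from between 6.02 and 7.24 units to between 22.4 and 60.1 units. Irgm1, a GTPase of autophagy, rose from between 127 and 153 units to between 230 and 260 units (adjusted p = 0.014). In contrast, 0 of 21 type I interferon targets and regulators were called, with a median of 0.08. Among them Irf1 came closest, with 65.6, 103 and 121 units in the controls and 315, 236 and 303 units with IL-1b (log2 change 1.44 ± 0.32 SE, adjusted p = 0.097). Of the 10 measured genes of MHC class I presentation, H2-K1 rose 1.47-fold (adjusted p = 0.017). Its 3 other probe sets gave -0.17, 0.33 and 0.48 and were not called, and probes for class I genes can hybridise to near-identical family members.

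Acute phase genes and a set described in reactive astrocytes also held large rises. Ptx3, a soluble pattern recognition protein, read 79.0, 73.7 and 87.8 units in the controls and 712, 892 and 1679 units with IL-1b, 13.7-fold higher (adjusted p = 3.2e-06). Its second probe set stayed at background (3.22 and 1.20 units). Steap4, a metalloreductase of iron and copper uptake, read -57.9, -74.5 and -60.0 units and then 147, 235 and 392 units (log2 change 4.00 ± 0.32 SE, adjusted p = 2.6e-06). It was thus below 0 on all controls and detectable on all stimulated arrays. Lcn2, which binds bacterial siderophores, read 67.3, 61.5 and 116 units and then 375, 438 and 758 units, 6.41-fold higher (adjusted p = 0.0018). Of 11 measured iron, pentraxin and acute phase genes these 3 rose, with a list median of 0.03, and ceruloplasmin (Cp) gave 0.63 ± 0.23 (SE, adjusted p = 0.39).

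Of 18 measured reactive astrocyte genes 5 rose, Cxcl10, Gbp2, Lcn2, S1pr3 and Steap4, with a median of 0.06 over the list. Over all genes 0.253% rose. S1pr3, a receptor for sphingosine-1-phosphate, read 381, 418 and 618 units in the controls and 931, 1102 and 1657 units with IL-1b, 2.60-fold higher (adjusted p = 0.0054). The astrocyte filament gene Gfap went the other way, from 1100, 1187 and 1794 units to 615, 621 and 992 units, a change of -0.86 ± 0.30 (SE) that was not called (adjusted p = 0.35). The mean of the 10 astrocyte markers, as log2(intensity + 16), was 9.87 to 10.0 in the controls and 9.65 to 9.81 with IL-1b, with 0 of 10 called. The mean of the microglial markers was 4.94 to 5.22 in the controls and 4.98 to 5.26 with IL-1b, against a scale whose floor is 4. The part of glial cells in the response was not tested.

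Adhesion molecules, a Toll-like receptor and a growth factor completed the inflammatory rises. Icam1, a ligand for leukocyte integrins, read 56.5, 71.7 and 109 units in the controls and 191, 301 and 377 units with IL-1b, 3.66-fold higher (adjusted p = 0.031). Vcam1 rose 1.38-fold from between 728 and 853 units to between 1037 and 1257 units (adjusted p = 0.014), and its 2 other probe sets gave 0.51 and 0.90 without being called. These were 2 of 8 measured adhesion genes. Tlr2, which recognises bacterial lipoproteins, rose 3.49-fold, from between 50.3 and 76.2 units to between 177 and 287 units (adjusted p = 0.0001), and was the only one of 9 in its list. Csf1, a growth factor of microglia and macrophages, rose from 240, 263 and 223 units to 411, 420 and 588 units (adjusted p = 0.012). Its brightest probe set gave 0.16 ± 0.30 (SE, adjusted p = 1). No other of the 20 measured cytokines and colony-stimulating factors was called: Il6 gave 0.55 ± 0.25 (SE) at intensities of at most 31.8 units (adjusted p = 0.53), and Tnf was below 0 in both group means. Ptgs2, the inducible cyclooxygenase, rose from below 0 in the controls to 14.2, 20.9 and 30.0 units (adjusted p = 0.045). Its brighter probe set gave 0.28 ± 0.35 (SE, adjusted p = 0.95).

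Genes outside the lists made up 14 of the 46 that rose. Lsm7, a subunit of the ring that binds U6 RNA and decapping complexes, had closely spaced values in both groups. It read 298, 334 and 344 units in the controls and 667, 677 and 753 units with IL-1b (log2 change 1.07 ± 0.06 SE, adjusted p = 4.4e-08). Its controls were what stood apart: on the 18 arrays of the other arms it read 574 to 783 units (median 750), so the stimulated AcP+AcPb arrays lay within that range and the 3 AcP+AcPb controls lay below it. Pde4b, a phosphodiesterase that degrades cyclic AMP, rose from 932, 913 and 898 units to 1229, 1245 and 1366 units (adjusted p = 0.003). Homer1, a scaffold of the postsynaptic density with an activity-induced short form, rose from 232, 190 and 199 units to 289, 289 and 304 units (adjusted p = 0.01). Col4a3, a collagen chain, rose from below 0 on all controls to 51.7, 27.2 and 60.8 units (adjusted p = 0.026). The others were Amz2, Gas1, Lrcol1, Nmral1, Pinx1, Prr5l, Tex30, Thoc1, Tmprss11a and Trafd1, of which Amz2 changed least, by 0.25 (log2), and Lrcol1 most, from below 0 on all controls to 35.2, 14.7 and 42.7 units.

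The falls were smaller, and only 3 of the 20 genes that fell were in a list. Abca2, a lipid transporter of neurons and oligodendrocytes, read 113, 113 and 120 units in the controls and 19.1, 4.26 and 39.5 units with IL-1b. Its mean was 5.50-fold lower (log2 change -1.95 ± 0.34 SE, adjusted p = 0.018). Plin2, a coat protein of lipid droplets, fell from 215, 211 and 180 units to 119, 127 and 138 units (adjusted p = 0.011). These were 2 of the 21 measured lipid genes, whose median was -0.06. Nrarp, a target and feedback regulator of Notch, fell from 699, 684 and 594 units to 496, 462 and 382 units (log2 change -0.55 ± 0.09 SE, adjusted p = 0.0072). Its second probe set gave -0.34 (adjusted p = 0.21), and Nrarp was the only one of 18 measured Notch genes called; Notch1 and Hes5 gave -0.38 and -0.26 (adjusted p = 0.73 and 0.68).

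The remaining falls belonged to no list. Ptk2b, the calcium-activated kinase Pyk2, went from 40.4, 13.6 and 27.6 units to below 0 on all 3 stimulated arrays (adjusted p = 0.00031), and its other probe set gave -0.21. Its control and IL-1b means were below 0 in every other arm, from -162 to -60.2 units. Both AcP+AcPb means, 27.2 units in the controls and -27.0 with IL-1b, lay above that range, and only the dim controls were above 0. The call was lost with a floor at 32, with a generalised log keeping values below 0, and in the fit to only the arrays compared. The transcript 4930533K18Rik was also dim, falling from between 10.7 and 21.7 units to at most 2.40 units. Brighter genes fell by less. Usp4, a deubiquitinase, went from 1059, 1038 and 1015 units to 738, 747 and 776 units (log2 change -0.45 ± 0.08 SE, adjusted p = 0.026), although its other probe set gave 0.04. Camk2g, the gamma chain of a calcium-dependent kinase, went from 1958, 1854 and 1874 units to 1515, 1542 and 1562 units (log2 change -0.30 ± 0.05 SE, adjusted p = 0.028). Speg, Vstm4, Filip1 and Lrba fell by between 0.39 and 0.53 on the log2 scale, and the other probe sets of Filip1, Lrba and Speg were not called.

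The neuronal lists held no calls. Of 22 synaptic receptors and channels, 15 synaptic vesicle genes and 12 neuropeptides, 0 were called, with medians of -0.04, -0.01 and -0.03. Tac1, the precursor of substance P, had the largest shift in the neuropeptide list, 2.13, but read 74.1, -67.8 and 11.6 units in the controls and its SE was 1.00 (adjusted p = 0.55). Complement (12 genes measured), proteases and their inhibitors (17), the IL-6 family with Stat3 and the SOCS genes (13), TNF receptors and apoptosis (18) and replication licensing (12) had 0 called as well. Within them Socs3 gave 1.01 ± 0.27 (SE, adjusted p = 0.19). Tnfrsf12a, the receptor for the cytokine TWEAK, gave 2.27 ± 0.54 (SE, adjusted p = 0.13) with IL-1b arrays at 16.2, 98.4 and 218 units. None of the 10 reference genes was called.

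**Figure D2:**
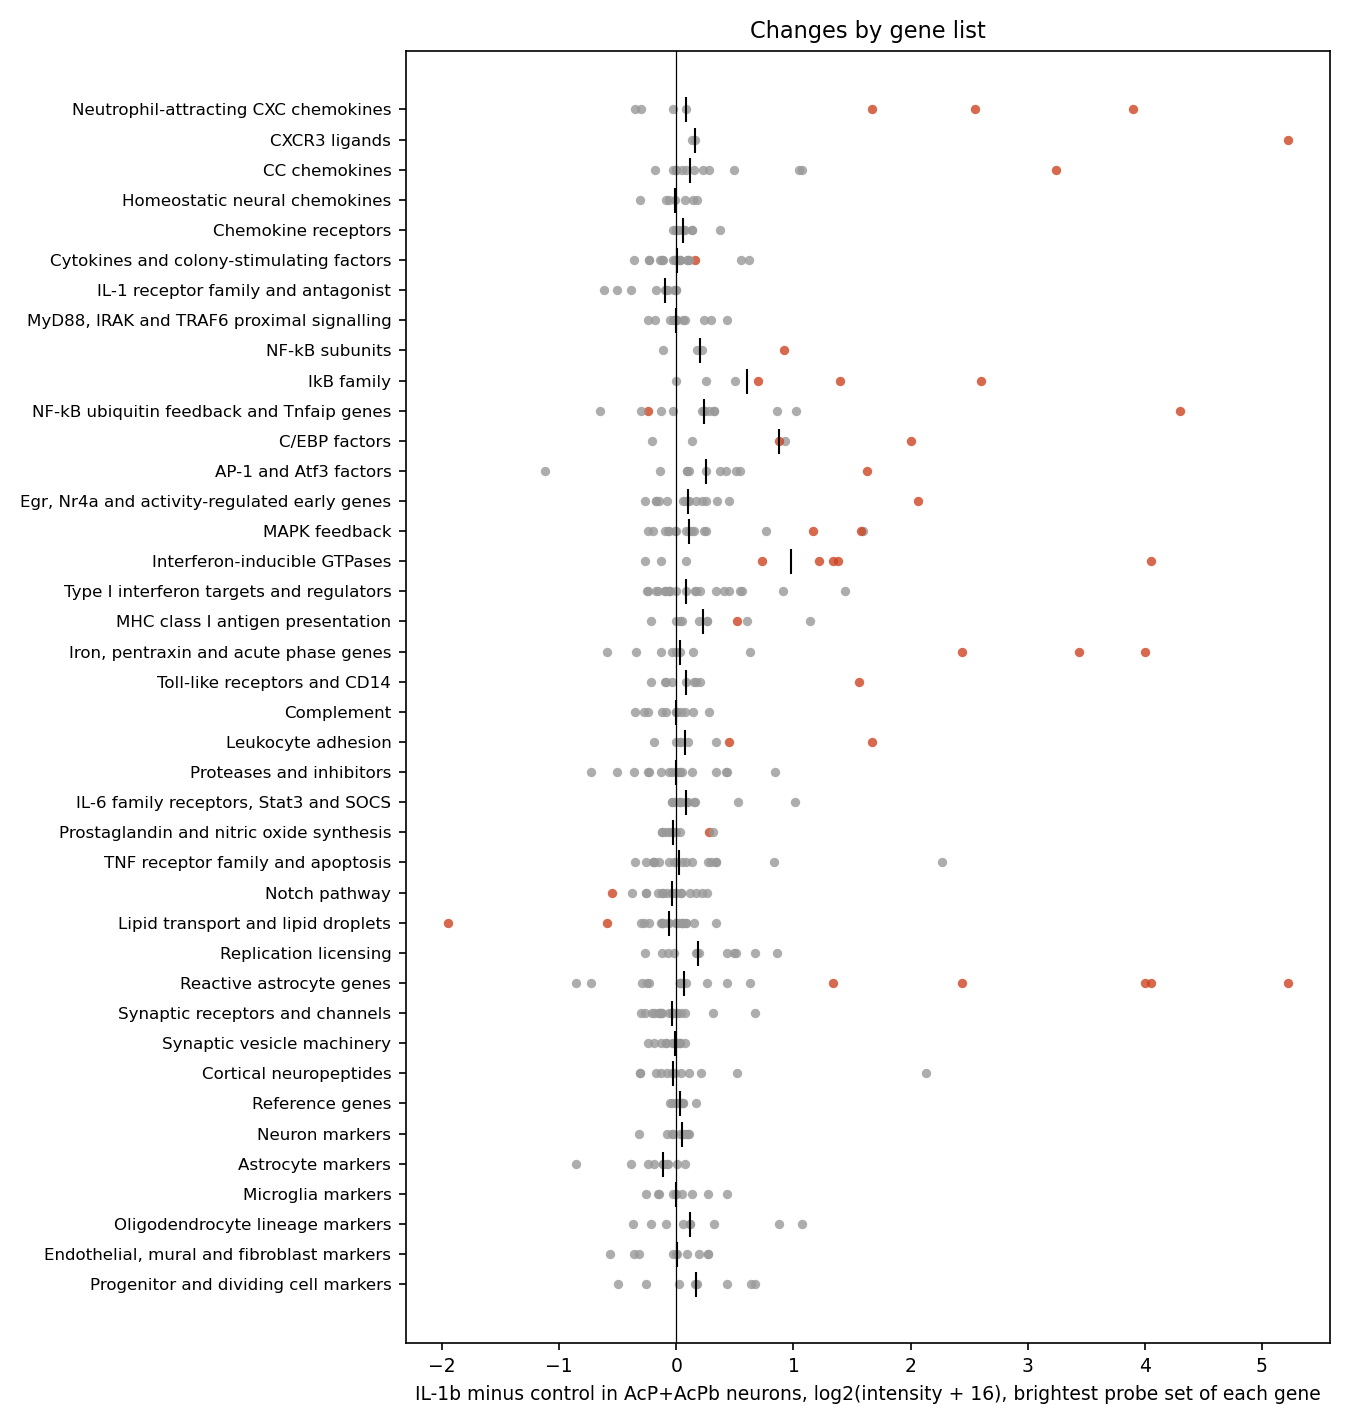
Change with IL-1b in AcP+AcPb neurons, as the difference of log2(intensity + 16), for the brightest probe set of each gene, in 40 gene lists; red points are genes with a called probe set, grey points genes without, and the black tick is the list's median. The brightest probe set need not be the called one. Interferon-inducible GTPases (median 0.98), C/EBP factors (0.88) and the IkB family (0.60) have the highest medians. The cell type marker lists at the bottom hold no red point, and the lists were chosen with earlier results of these data known.

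Set against control 3 alone, all 88 changes kept their direction, but most lost the call. This comparison equals a fit with the array code as a block, because control 3 is the only control with the code of the IL-1b arrays. It called 92 probe sets (0.204%), 47 higher and 45 lower, and these included 28 of the 66 rises and 1 of the 22 falls. The change against control 3, as a share of the change against all 3 controls, had a median of 0.96 for the rises and 0.94 for the falls. It was at least 0.51 for every rise and 0.42 for every fall. Cxcl10 gave 4.64 ± 0.43 (SE, adjusted p = 1.8e-05), Tnfaip2 4.02 (adjusted p = 5.1e-06), Gbp2 4.41 (adjusted p = 1e-05) and Ccl2 3.11 (adjusted p = 3.6e-05). Nfkbia gave 0.72 (adjusted p = 0.01), Tlr2 1.57 (adjusted p = 0.006) and Lsm7 0.99 (adjusted p = 5.1e-06). The call was lost for Cebpd at 1.40 ± 0.33 (SE, adjusted p = 0.17), Lcn2 at 1.96 (adjusted p = 0.17), Icam1 at 1.24 (adjusted p = 0.73) and S1pr3 at 0.93 (adjusted p = 0.35). Abca2 (-2.00, adjusted p = 0.23), Plin2 (-0.44, adjusted p = 0.46) and Nrarp (-0.41, adjusted p = 0.38) also lost it, and Ptk2b kept it at -1.44 (adjusted p = 0.01). Of the 43 genes plotted, 17 kept the call against control 3 at the probe set shown and 26 lost it. Those that lost it also include Cebpb (0.74, adjusted p = 0.28), Relb (0.98, adjusted p = 0.23), Irgm1 (0.64, adjusted p = 0.35), Gbp3 (0.96, adjusted p = 0.78) and Usp4 (-0.42, adjusted p = 0.39). The others are 4930533K18Rik, Atf3, Birc3, Col4a3, Csf1, Filip1, Gbp6, H2-K1, Lrba, Nfkbie, Ptgs2, Speg, Vcam1 and Vstm4. Outside these 43, Pde4b (0.50, adjusted p = 0.053), Homer1 (0.53, adjusted p = 0.088) and Camk2g (-0.28, adjusted p = 0.39) lost it too. With 1 control array in place of 3, the comparison mostly has larger standard errors, and the lone array is taken to vary like those of the other groups. Probe sets set to 0 on most arrays can instead have a very small standard error. An Ikbip probe set read 11.5 units in control 3 and -13.7 to 0.200 on the other AcP+AcPb arrays. Its change against control 3 was -0.77 with a standard error of 0.01, although it was at background. Changes that shrank or grew by over 1.5 times were those of Trafd1 (0.21), Amz2 (0.16) and 2 probe sets without a gene symbol.

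**Figure D3:**
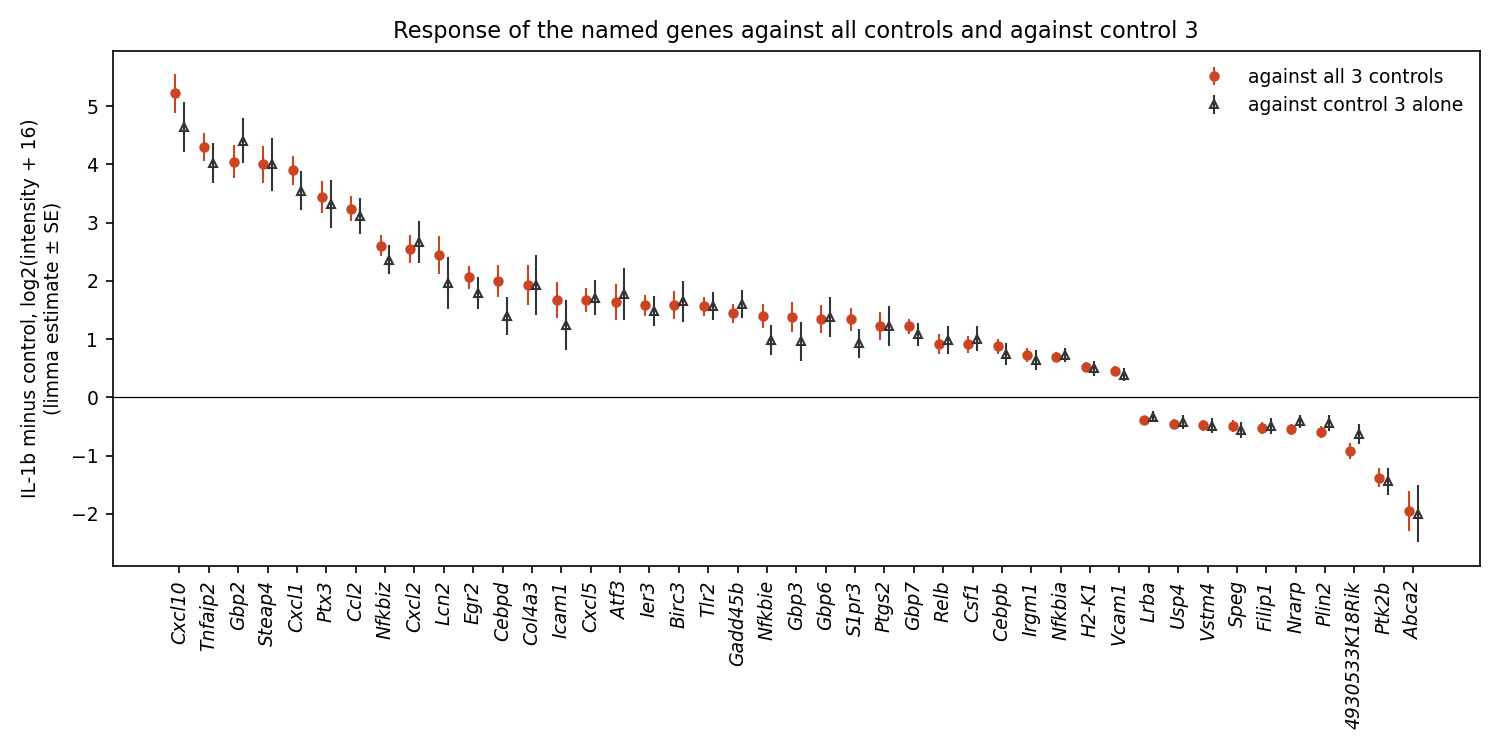
Log2 change with IL-1b in AcP+AcPb neurons for 43 genes, the 15 largest rises, the 10 largest falls and every other called gene of the lists, ordered by size; filled circles compare the 3 IL-1b arrays with all 3 controls and open triangles with control 3 alone, with bars for the limma standard error. Every open triangle lies on the same side of 0 as its circle; Cebpd (2.00 and 1.40) and S1pr3 (1.34 and 0.93) are among the genes whose change is smaller against control 3.

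The controls with different codes also differed from each other. Control 3 against controls 1 and 2 gave 76 called probe sets (0.169%). Of these, 49 were under 32 units on all 6 arrays and 14 exceeded 100 units on at least 1. When dim probe sets were removed before the fit, 8 were called. Gli3, a transcription factor of Hedgehog signalling, read 509 and 522 units in controls 1 and 2, 270 in control 3 and 221 to 274 with IL-1b. This was 1 of 3 Gli3 probe sets; the others gave -0.08 and -0.18 (log2, adjusted p = 1 for each) between control 3 and controls 1 and 2. Acly, which makes acetyl-CoA for lipid synthesis, read 1515 and 1483 units, then 821 in control 3 and 850 to 916 with IL-1b, at 1 of its 6 probe sets. Exosc5, a subunit of the RNA exosome, read 479 and 570 units, then 263 in control 3 and 254 to 304 with IL-1b. Uox, the urate oxidase gene, ran the other way at 54.8 and 38.4 units, then 257 in control 3 and 190 to 301 with IL-1b. At these probe sets control 3 lay with the IL-1b arrays, and controls 1 and 2 lay apart. On the 18 arrays of the other arms Gli3 read 217 to 315 units, Acly 699 to 1049, Exosc5 243 to 329 and Uox 51.7 to 262. None of the 4 probe sets was called in the response; Gli3 gave -0.73 ± 0.16 (SE, adjusted p = 0.11).

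**Figure D4:**
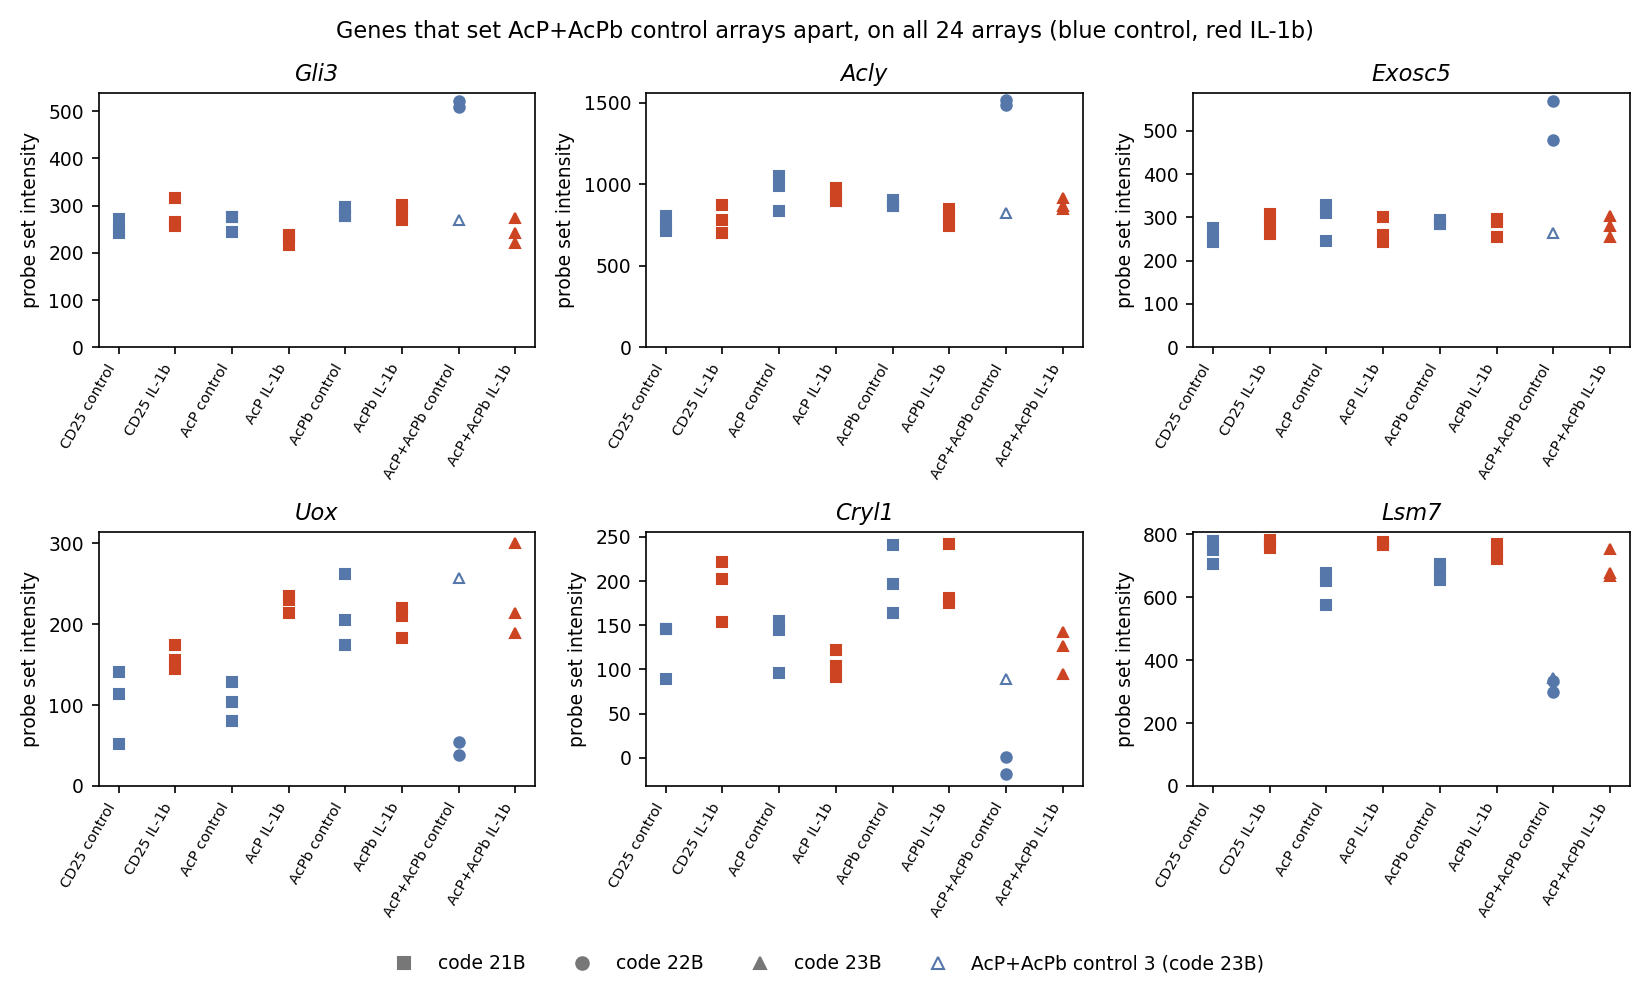
Probe set intensity of Gli3, Acly, Exosc5, Uox, Cryl1 and Lsm7 on all 24 arrays, in 8 groups of 3, blue for control and red for IL-1b; squares have the array code 21B, circles 22B and triangles 23B, and the open triangle is AcP+AcPb control 3. 1 probe set is drawn for each gene; in the first 5 AcP+AcPb controls 1 and 2 lie apart from control 3 and the IL-1b arrays, and in Lsm7 all 3 AcP+AcPb controls lie below the other 21 arrays.

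For some called probe sets, as for many uncalled ones, the mean of the unstimulated AcP+AcPb arrays lay outside the control means of the other arms. The mean of the AcP+AcPb controls was outside the range of the control means of the other 3 arms, with the IL-1b mean inside it, for 6 of the 66 rises (9.09%), 6 of the 22 falls (27.3%) and 20% of all probe sets. The shares of the called probe sets lay on either side of 20%, so the pattern was not shown to be particular to them. Lsm7, Homer1, Nmral1 and Tex30 were among these rises, and Camk2g, Trip12, Hpcal4, Mtfp1 and Filip1 among the falls. The reverse, controls inside and IL-1b outside, held for 40 rises and 9 falls, and for 17.1% of all probe sets. These genes were picked out after their values were seen, and no test was made of the difference between control groups.

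The stimulated arrays were not equally high. IL-1b array 3 was the highest of the 3 for 55 of the 66 rises, while it was the highest for 29.9% of all probe sets. Control 3 was the highest control for 37 of the 66, against 29.6% of all probe sets. The mean of the 15 largest rises, as log2(intensity + 16), was 5.63, 5.81 and 6.02 in controls 1, 2 and 3 and 8.50, 8.69 and 9.29 in IL-1b arrays 1, 2 and 3. Without IL-1b array 3 the count of called probe sets was 53, and without control 3 it was 206.

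The response was next set beside that of neurons with AcP alone. In AcP neurons Cxcl10 read 13.5 ± 15.8 units in the controls and 2512 ± 277 units with IL-1b (mean ± SD, n = 3), where AcP+AcPb neurons had 54.3 ± 29.1 and 2489 ± 649 units. The stimulated levels were close and the controls of AcP+AcPb neurons were higher. Cebpd read 68.2 ± 14.4 and 809 ± 256 units in AcP neurons, against 157 ± 67.3 and 653 ± 154 units. Over the 66 probe sets that rose, the median change was 1.39 in AcP+AcPb and 1.58 in AcP neurons, and 42 of the 66 had the larger change in AcP neurons. Over the 22 that fell the medians were -0.42 and -0.05. Both sets were chosen for their change in AcP+AcPb neurons, so a median nearer 0 in another arm can come from that choice. A test of the difference between the 2 responses called 2 of 45037 probe sets (0.00444%), with 2367 at an unadjusted p under 0.05. The first was Lsm7, with a change of 1.07 in AcP+AcPb and 0.28 in AcP neurons (difference 0.79 ± 0.08 SE, adjusted p = 0.0012). The other, Mfsd4b5, was below 0 on all 6 AcP+AcPb arrays at the called probe set. Its AcP means were at background too, below 0 in the controls and under 16 units with IL-1b. The size of this difference therefore depends on the floor.

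For the inflammatory genes the difference from AcP neurons did not pass the test, which does not show that the arms respond alike. It was -1.28 ± 0.46 (SE) for Cxcl10, -1.26 ± 0.38 (SE) for Cebpd, -1.60 ± 0.44 (SE) for Icam1 and -1.04 ± 0.47 (SE) for Lcn2, with adjusted p = 0.83, 0.7, 0.69 and 0.93. For Ptx3 it was 0.04 ± 0.40 (SE), for Ccl2 -0.17 ± 0.30 (SE), and for Nrarp, which gave -0.55 and -0.54 in the 2 arms, -0.01 ± 0.12 (SE). Abca2 gave -1.95 here and 0.41 in AcP neurons, a difference of -2.36 ± 0.47 (SE) with adjusted p = 0.27. Array code and arm cannot be told apart in this comparison, since no AcP array carries 22B or 23B. Counts against control 3, here and below, rest on 1 control array. They can include background probe sets with a very small standard error, so they do not measure how far the arms differ. With the AcP+AcPb response taken against control 3, 50 probe sets differed, 8 higher and 42 lower, and both Lsm7 (0.71, adjusted p = 0.0052) and Mfsd4b5 (-0.45, adjusted p = 0.0017) were among them.

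Against CD25 neurons, which lack an accessory chain, 49 probe sets differed in response (0.109%), 39 higher and 10 lower. With the array code as a block, which sets the AcP+AcPb response against control 3, there were 62, 25 higher and 37 lower, including 25 of the 49. Tnfaip2 gave 4.30 in AcP+AcPb neurons and -0.41 in CD25 neurons (difference 4.71 ± 0.34 SE, adjusted p = 3.4e-06). The difference was 5.26 ± 0.46 (SE) for Cxcl10 and 3.68 ± 0.36 (SE) for Cxcl1, and 3.17 ± 0.30 (SE) for Ccl2. For Nfkbia it was 0.62 ± 0.11 (SE, adjusted p = 0.042). Icam1 had a difference of 1.93 ± 0.44 (SE) that did not pass (adjusted p = 0.18). Over the 66 rises, which were chosen for their change in AcP+AcPb neurons, the median change was -0.04 in CD25 neurons and 0.06 in AcPb neurons. In AcPb neurons Egr2 gave 0.83 ± 0.20 (SE), where it gave 2.06 with both chains, and Cxcl10 gave 0.36 ± 0.33 (SE). The unstimulated CD25 arrays were higher than the AcP+AcPb controls over the 15 largest rises, with means of 6.71 to 6.92 against 5.63 to 6.02 (log2). S1pr3 and Cebpd had CD25 control means of 3195 and 823 units, above their stimulated AcP+AcPb means of 1230 and 653 units. Cxcl10 went the other way, with 199 units in CD25 controls against 2489.

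**Figure D5:**
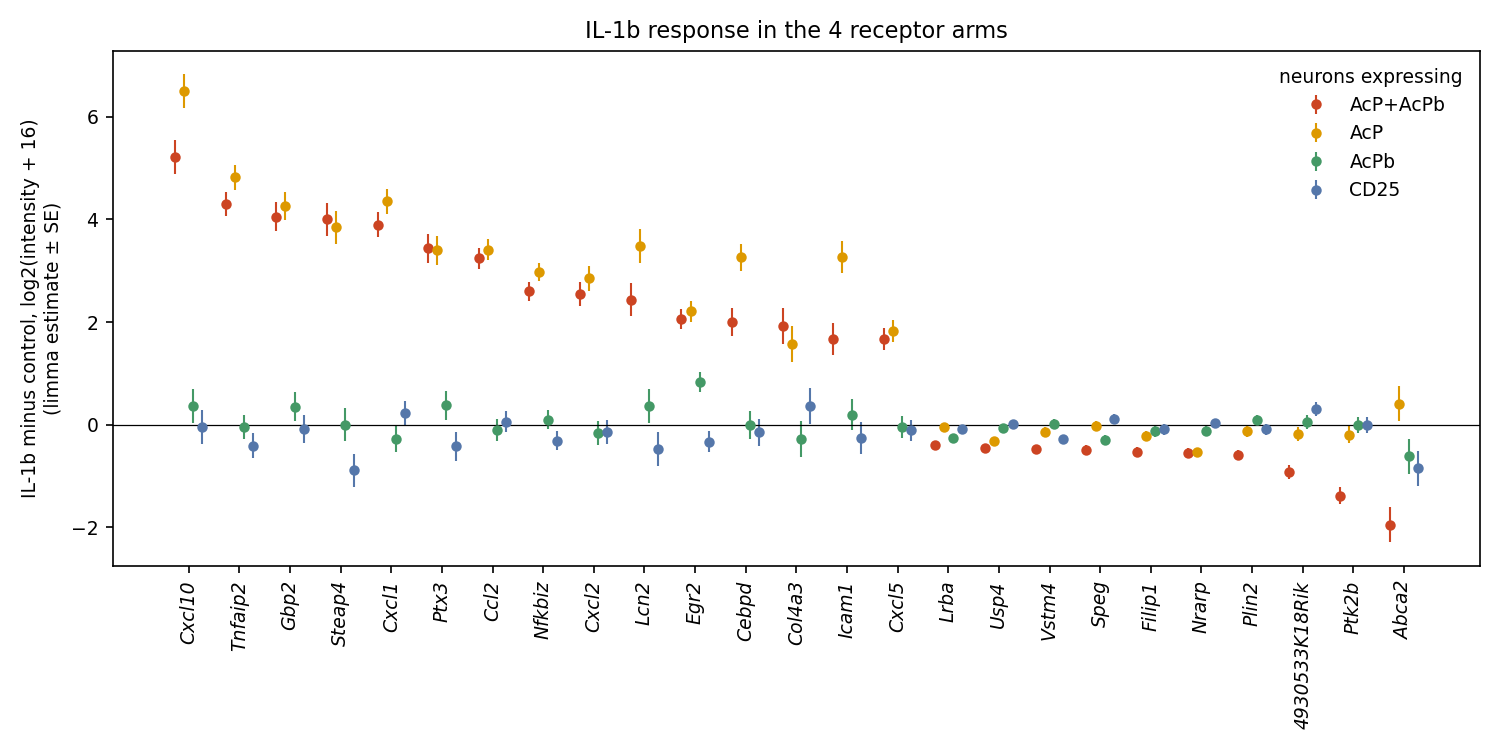
Log2 change with IL-1b for the 15 largest rises and 10 largest falls of AcP+AcPb neurons in all 4 arms, red for AcP+AcPb, yellow for AcP, green for AcPb and blue for CD25, with bars for the limma standard error (3 IL-1b against 3 control arrays in each arm). For the rises red and yellow points lie high together, as for Cxcl10 (5.22 and 6.50). Green and blue points mostly lie nearer 0, with Egr2 at 0.83 in AcPb and Steap4 at -0.89 in CD25 neurons. For the falls the other arms vary, with Nrarp as low in AcP neurons (-0.54) and Abca2 below 0 in CD25 (-0.85) and AcPb neurons (-0.61). The genes were selected on the red points.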

How the data were processed

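The authors deposited 1 table of probe set intensities on a linear scale for 24 single-colour arrays, with values from -1617.3 to 13068.67. Per the labels' protocols, RNA came from Qiagen RNeasy columns and was amplified and biotin-labelled (Eberwine). The software that summarised probes and any normalisation between arrays are not named in the labels, so the precision of each value rests on the number of arrays and on brightness.

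Intensities below 0 were set to 0, 16 was added and log2 taken, which understates changes of dim genes; no further scaling was applied. limma 3.58.1 in R 4.3.3 fitted 8 group means over the 24 arrays (lmFit and eBayes, two-sided, 16 residual degrees of freedom, 0.65 prior), with Benjamini-Hochberg adjustment over 45037 probe sets and calls under 0.05. A fold of means is given only where both group means exceed 16 units. The array code was taken from the labels. No 2 arrays held identical values. An exact permutation test of 3 against 3 cannot go below p = 0.1 and was not used.

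Gene symbols come from the platform's annotation, which can be old: 34945 probe sets had 1 symbol, 932 several and 9160 none. Each named gene is represented by its called probe set with the highest mean. Named are the 15 largest rises, the 10 largest falls, called members of 40 gene lists (514 genes) with up to 3 more members as values, the receptor genes, and the 5 largest differences each way; Lsm7, Pde4b, Homer1, Camk2g and the genes that divide the controls were chosen after their values were seen. The members and lists were chosen with earlier results of these data known. The scripts were tested on simulated data. Same-numbered control and IL-1b arrays did not deviate together (correlations of -0.121, -0.074 and 0.018), so the replicate numbers were not taken as pairs.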

Additional observations from a re-analysis of the deposited data

Results flagged for a closer look

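The response of AcP+AcPb neurons differed from that of another arm, by a test of the difference itself, for the following genes. Against AcP neurons, Lsm7 differed by 0.79 ± 0.08 (log2, SE) and Mfsd4b5 by -0.45 ± 0.05 (SE). Mfsd4b5 was at background on all 6 AcP+AcPb arrays, and both of its AcP means were under 16 units. Against CD25 neurons, the 5 largest positive differences were those of Cxcl10 (5.26), Steap4 (4.89), Tnfaip2 (4.71), Gbp2 (4.13) and Ptx3 (3.86). The 5 largest negative ones were those of Ptk2b (-1.38), Crkl (-1.33), 4930533K18Rik (-1.24), Hscb (-0.91) and Ttc28 (-0.77).

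Ptk2b and 4930533K18Rik were called in the AcP+AcPb response itself, and both CD25 means of Ptk2b were below 0. Crkl, an adaptor of growth factor receptors, changed by -0.73 with IL-1b in AcP+AcPb neurons and by 0.59 in CD25 neurons. Hscb, a chaperone of iron-sulphur assembly, changed by -0.43 and 0.48, and Ttc28 by -0.46 and 0.31. For these 3 the estimates had opposite signs in the 2 arms, and neither passed the test within its arm. The limma adjusted p was 0.07 to 0.2 in AcP+AcPb neurons and 0.58 to 0.75 in CD25 neurons. Crkl was dim at this probe set, with 19.2 to 63.1 units on the 6 AcP+AcPb arrays. Its 3 other probe sets changed by -0.08 to 1.21 in AcP+AcPb neurons, and the 3 others of Ttc28 by -0.05 to 0.08, without a call. With the array code as a block, which sets the AcP+AcPb response against control 3, Cxcl10 (4.68), Steap4 (4.89), Tnfaip2 (4.43), Gbp2 (4.49) and Ptx3 (3.75) kept the call. Ptk2b (-1.44), Crkl (-1.24), 4930533K18Rik (-0.94), Hscb (-0.85) and Ttc28 (-0.71) kept their direction and lost it, with adjusted p from 0.079 to 0.29. Lsm7 (0.71) and Mfsd4b5 (-0.45) kept theirs against AcP neurons. The other arms all carry 21B, so code and arm cannot be told apart beyond this.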

How the results depend on the processing

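For the IL-1b response of AcP+AcPb neurons, 88 probe sets were called; the other scalings, constants, filters and weights gave 65 to 113, the array code as a block 92 and the replicate block 95. The fit to the 6 arrays compared, with 4 residual degrees of freedom, gave 11, of which Pramel25 alone was among the 88; all 43 named genes lost the call there (adjusted p 0.096 to 0.46) and had unadjusted p of at most 0.022. Leaving out 1 array gave 53 (without IL-1b array 3) to 206 (without control 3). Apart from the fit to 6 arrays, 16 of the 43 kept their call in every alternative, among them Cxcl1, Cxcl10, Ccl2, Gbp2 and Nfkbia, and none changed sign; Atf3, Col4a3, Gbp6, Icam1, Ptgs2, Speg, Usp4 and Vstm4 lost it in 8 or more.

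The difference from AcP neurons, 2 called, became 4 with the added constant at 4, and 1 with a floor at 32, with quantile normalization, with the dim filter, with 1 probe set a gene and with the generalised log. It became 0 with centred array medians and with only the arrays compared, 50 when the array code was a block, and 3 to 32 leaving out 1 array; the replicate block gave 2. The difference from CD25 neurons, 49, became 27 with 1 probe set a gene, 24 with only the arrays compared and 27 to 109 leaving out 1 array; the block on array code gave 62, 25 higher and 37 lower where it was 39 and 10, and the replicate block 42. Control 3 against controls 1 and 2, 76, became 8 with the dim filter, 2 with 1 probe set a gene, 11 with the generalised log and 187 to 198 leaving out 1 of the pair. The causes of these shifts were not tested, apart from the fewer arrays or probe sets some settings use. The generalised log and a filter at 16 units were chosen after seeing the data.

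Of the 88, 11 rises had a control mean and 5 falls an IL-1b mean below 0, and 2 had both means under 16 units, so the size of those changes depends on the floor. Among the 43 named genes 21 have another probe set that was not called, and for 8 it has the opposite sign.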
